A study of Mus musculus with 10 samples.

Results

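The collagen genes of the mouse array were taken as all probe sets whose platform annotation gives a single symbol of the form Col, a number, the letter a and a number. This rule found 42 genes, read by 82 probe sets, among 18193 named genes and 45101 probe sets on the array. By type they fell into 9 fibrillar genes (types 1, 2, 3, 5 and 11), 7 basement membrane genes (types 4 and 18) and 26 genes of other types. Affymetrix arrays had been run on 5 sorted populations, with 2 arrays for each. Embryonic stem cells (ESCs) of the V6.5 line, a cross of 129 and BL6 mice, were sorted undifferentiated at day 0 as SSEA1+/cKit+ cells. At day 6 of embryoid body (EB) differentiation without LIF, in vitro derived primordial germ cells (iPGCs) were sorted from V6.5 EBs as SSEA1+/cKit bright cells and from EBs of the Oct4-Gfp line, which has a mixed background and reports Oct4 with Gfp, as Oct4-gfp+/cKit bright cells. The somatic cells were the SSEA1-/cKit- cells of the V6.5 EBs and the Oct4-gfp-/cKit- cells of the Oct4-Gfp EBs. No Oct4-Gfp ESCs were analysed here, so ESCs were tested only against V6.5 cells. Where ESC signals are set beside those of Oct4-Gfp arrays, the line and the sort differ along with the cell type. The ESCs had grown on inactivated fibroblast feeders, which were depleted before EB formation. Nothing in the labels says that the 2 arrays of a population came from separate cultures, so p-values measure the spread between these arrays, which may be technical.

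Collagens are triple helices of 3 alpha chains, each chain encoded by its own gene. The fibrillar collagens build the striated fibrils of connective tissue, type IV collagen builds the sheet-like network of basement membranes, and type XVIII is a basement membrane proteoglycan whose C-terminal fragment is endostatin. In the early embryo type IV collagen appears with the first basement membranes, whereas fibrillar collagens are known chiefly as products of mesenchyme. Primordial germ cells migrate over and through such matrix on their way to the gonads.

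Signals are in the deposited unit, MAS5 intensity, and are listed for replicates 1 and 2 of each population in that order. A signal was called above background when it exceeded the 95th percentile of 43 olfactory receptor probe sets on the same array, a level between 12.6 and 25.4. Changes are on the scale of log2(signal + 14.8), which makes the folds of dim genes smaller than the ratio of their signals, and a gene was called at an adjusted p under 0.05 in limma. A fold given as "at least" is instead a ratio of signals without the added 14.8, with background in place of any lower signal in the dimmer population. Such a bound can exceed the fold of the fit, and the adjusted p beside it is that of the fit. In both lines, all 5 pluripotency markers and all 6 PGC markers on the array had higher levels in iPGCs than in the somatic population, and all 4 markers of day 6 somatic cells were lower. The ratio of the 3' to the 5' *Gapdh* control probe sets, a measure of RNA integrity, was 1.28 to 1.30 in ESCs and 1.65 to 2.05 in somatic cells. In iPGCs it was 1.51 and 1.63 in V6.5 and 2.02 and 2.37 in Oct4-Gfp cells.

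RefSeq promoter windows of build GRCm38.p6, each running from 250 bases before to 50 bases after a transcription start, were found for 33 of the 42 genes (36 windows). The window of *Col4a2* is shown because it spans the start of *Col4a1* as well, those of *Col1a2* and *Col3a1* because these genes had the largest falls in V6.5 iPGCs, and that of *Col5a3* because it moved the opposite way. They are written 5' to 3' on the gene's strand, and capitals mark the motifs CCAAT (the CCAAT box), GGGCGG (the GC box) and TATAAA (the TATA box) on either strand.
*Col4a2*, chr8:11312555-11312854, plus strand: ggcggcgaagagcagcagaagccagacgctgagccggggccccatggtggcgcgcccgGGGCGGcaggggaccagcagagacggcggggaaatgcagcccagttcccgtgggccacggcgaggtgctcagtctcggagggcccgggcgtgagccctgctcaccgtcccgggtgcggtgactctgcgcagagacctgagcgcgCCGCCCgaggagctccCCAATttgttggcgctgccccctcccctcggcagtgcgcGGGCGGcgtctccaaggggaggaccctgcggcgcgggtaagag
*Col1a2*, chr6:4505368-4505667, plus strand: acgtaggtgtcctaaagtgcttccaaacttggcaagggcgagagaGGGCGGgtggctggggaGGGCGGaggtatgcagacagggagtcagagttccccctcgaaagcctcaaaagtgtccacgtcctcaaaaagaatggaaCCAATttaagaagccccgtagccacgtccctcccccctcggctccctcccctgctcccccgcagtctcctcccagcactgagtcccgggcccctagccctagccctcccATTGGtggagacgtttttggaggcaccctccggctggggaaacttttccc
*Col3a1*, chr1:45311288-45311587, plus strand: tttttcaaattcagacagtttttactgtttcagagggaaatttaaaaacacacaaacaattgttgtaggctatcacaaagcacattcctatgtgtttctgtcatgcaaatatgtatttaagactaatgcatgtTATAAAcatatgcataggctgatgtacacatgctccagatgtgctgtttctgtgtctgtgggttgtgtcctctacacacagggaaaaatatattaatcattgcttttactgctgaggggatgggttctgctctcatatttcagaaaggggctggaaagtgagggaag
*Col5a3*, chr9:20815018-20815317, minus strand: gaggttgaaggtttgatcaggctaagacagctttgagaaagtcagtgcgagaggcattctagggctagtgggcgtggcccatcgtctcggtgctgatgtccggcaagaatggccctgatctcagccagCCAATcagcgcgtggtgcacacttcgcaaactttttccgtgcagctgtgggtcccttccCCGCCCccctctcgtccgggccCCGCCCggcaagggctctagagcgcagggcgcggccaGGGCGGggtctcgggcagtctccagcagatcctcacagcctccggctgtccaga
The starts of *Col4a2* and *Col4a1* lie 21 bases apart on opposite strands, and the window of *Col4a1* itself (chr8:11312777-11313076, minus strand, not printed) has 78 of its 300 bases in common with that of *Col4a2*. *Col4a5* and *Col4a6* form a second pair on opposite strands, with starts 1343 bases apart on chromosome X. Among the 4 windows shown, *Col3a1* holds the TATA box motif and neither of the others, and the other 3 windows hold the CCAAT box and GC box motifs but not the TATA box motif. The GC box motif was found in 22 of the 36 collagen windows (61.1%) and in 35.7% of all 32851 windows. The CCAAT box motif was found in 36.1% of the collagen windows and 37.4% of all, and the TATA box motif in 13.9% and 13.6%. These matches describe the sequences and were not tested against the signals.

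Day 6 somatic cells had far more summed collagen signal than iPGCs or ESCs, and the sums of iPGCs were much nearer those of ESCs. Both V6.5 iPGC arrays exceeded both ESC arrays for the fibrillar (896 and 1004) and basement membrane genes (2199 and 2880). For the other types they overlapped with ESCs (851 and 1059). Summed over the fibrillar genes, the signal was 686 to 781 in ESCs, 710 to 1004 in iPGCs and 8827 to 14134 in somatic cells. The basement membrane genes summed to 1803 to 1850, 1728 to 2880 and 6636 to 9601 in the same populations, and the other types to 922 to 1215, 768 to 1059 and 3496 to 5930. Most of the basement membrane sum in ESCs and iPGCs was *Col18a1* alone, at 1289 to 1291 and 1381 to 2322, against 656 to 959 in somatic cells. For each of the 3 groups, no somatic array overlapped with an ESC or iPGC array. In bulk samples such as these, fewer expressing cells and less RNA per cell cannot be told apart.

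**Figure D1:**
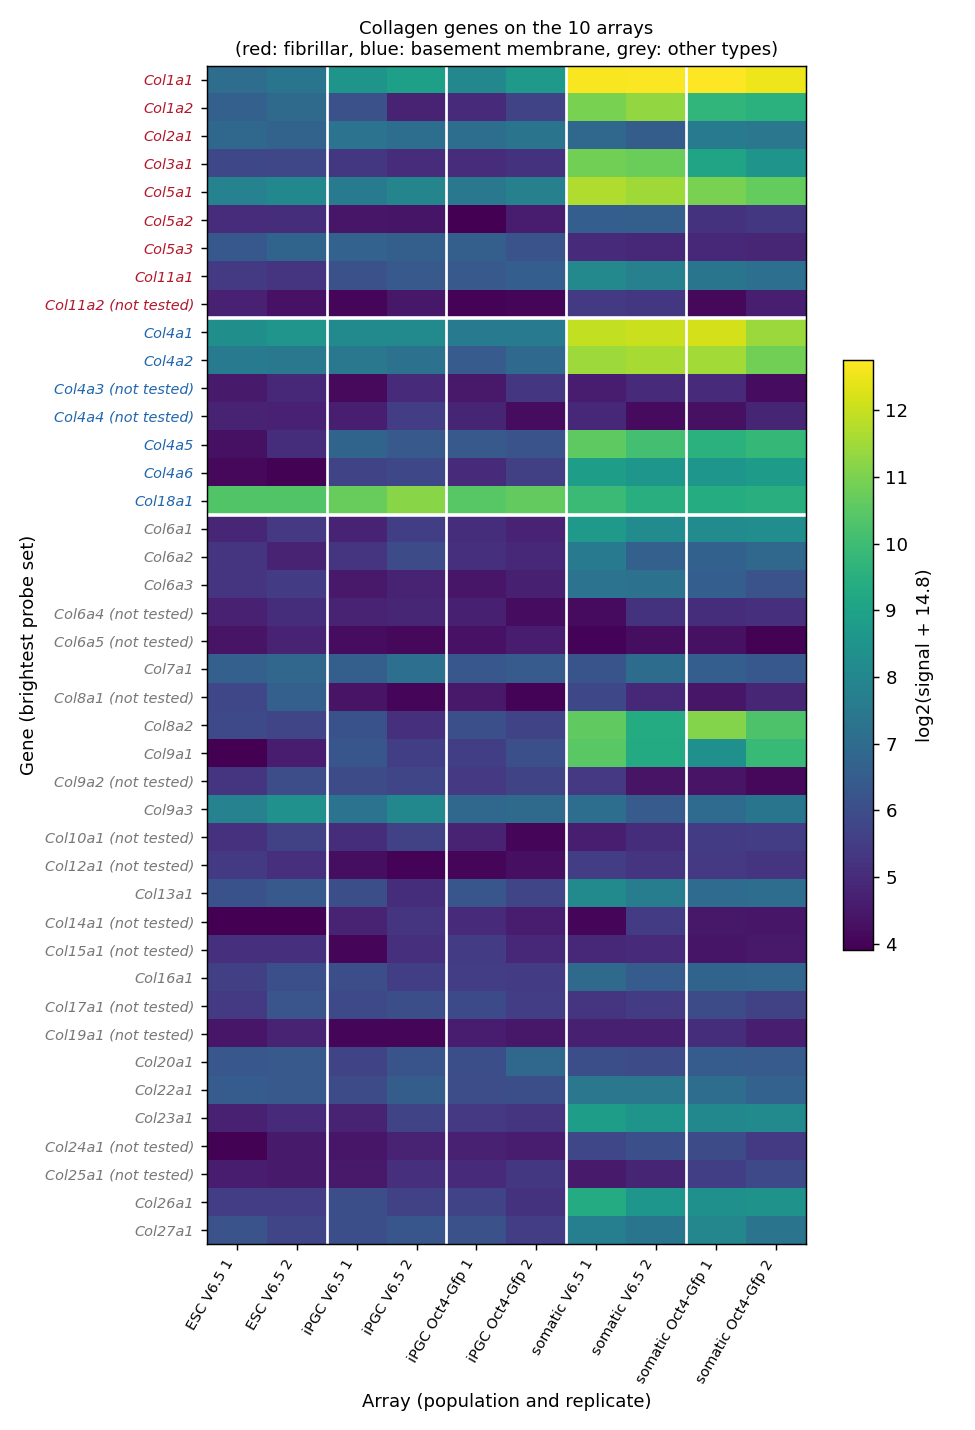
Signals of the 42 collagen genes (rows, brightest probe set) on the 10 arrays (columns), coloured by log2(signal + 14.8), with white lines between populations and between fibrillar, basement membrane and other types. The 4 somatic columns are brighter in rows such as *Col1a1*, *Col3a1*, *Col4a1* and *Col4a2*, whereas the *Col5a3* and *Col18a1* rows are dimmer there.

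Of the 42 genes, 27 (8 fibrillar, 5 basement membrane, 14 other) had a brightest probe set that passed the filter on dim probe sets and were tested. In V6.5 cells, 21 of these were lower in iPGCs than in somatic cells and 3 were higher, where over all tested genes 24.2% were lower and 27.3% higher. In Oct4-Gfp cells 21 were lower and 2 higher, against 24.8% lower and 25.7% higher over all tested genes. The 21 genes that were lower were the same in both lines. In V6.5 somatic cells against ESCs, 21 were higher and 3 lower, against 30.3% and 31.8% over all tested genes, and these comparisons share the V6.5 somatic arrays. Because the filter keeps dim genes that are bright in 1 population only, the fit was also made on all 42 genes. It then gave 25 lower and 2 higher in V6.5 iPGCs against somatic cells (15.5% and 17.1% of all genes), and 23 lower and 3 higher in the Oct4-Gfp line (17.0% and 15.5%). In V6.5 somatic cells against ESCs the same fit gave 23 higher and 2 lower (20.3% and 20.9%). The median log2 change over the 42 genes was -1.22 in V6.5 cells and -1.001 in Oct4-Gfp cells, beside 0.067 and -0.036 over all 18193 genes.

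The chains of type I collagen, the most abundant protein of connective tissue, were strongly lower in iPGCs than in somatic cells. *Col1a1* had signals of 119 and 149 in ESCs, 347 and 461 in V6.5 iPGCs, 245 and 398 in iPGCs of the Oct4-Gfp line, 6508 and 6541 in V6.5 somatic cells, and 6859 and 5804 in somatic cells of that line. All somatic arrays lay above all others, and on this probe set the 4 iPGC arrays lay above both ESC arrays. On its second tested probe set, iPGC Oct4-Gfp replicate 1 (49.3) lay below both ESC arrays (64.3 and 83.8). On the brightest probe set, the log2 change from somatic cells to iPGCs was -3.98 (SE 0.24, adjusted p = 1.41e-05) in V6.5 cells, or 15.8-fold lower, and -4.27 (SE 0.24, adjusted p = 1.13e-05) in Oct4-Gfp cells, or 19.3-fold lower. Signals of *Col1a2* were 84.5 and 110.3 in ESCs, 54.1 and 12.6 in V6.5 iPGCs, 16.6 and 38.4 in iPGCs of the Oct4-Gfp line, 2010.0 and 2543 in V6.5 somatic cells, and 839 and 739 in somatic cells of that line. Again no somatic array overlapped with the rest, but on this probe set both ESC arrays exceeded every iPGC array, and only 1 of the 2 iPGC arrays of each line was above background. *Col1a2* changed by -5.71 (SE 0.42, adjusted p = 3.16e-05) in V6.5 iPGCs against somatic cells and by -4.30 (SE 0.42, adjusted p = 0.000124) in the Oct4-Gfp line. On its second tested probe set, iPGC V6.5 replicate 2 (44.4) exceeded both ESC arrays (38.6 and 38.3).

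*Col3a1* encodes the chain of type III collagen of distensible tissues. By the brightest probe sets, it and its neighbour on chromosome 1, *Col5a2*, had the same order of populations as *Col1a2*. For *Col3a1* the signals were 41.7 and 40.3 in ESCs, 25.4 and 17.7 in V6.5 iPGCs, 17.7 and 21.7 in iPGCs of the Oct4-Gfp line, 1868 and 1705 in V6.5 somatic cells, and 523 and 341 in somatic cells of that line. The V6.5 somatic arrays were the highest, the Oct4-Gfp somatic arrays came next without overlap, and 3 of the 4 iPGC arrays were below 25. The log2 change in iPGCs against somatic cells was -5.64 (SE 0.21, adjusted p = 2.28e-06) in V6.5 and -3.67 (SE 0.21, adjusted p = 1.12e-05) in Oct4-Gfp cells, with V6.5 iPGC replicate 2 within background. Its second tested probe set was within background on every iPGC array, with fitted changes of -3.17 (adjusted p = 1.61e-05) and -1.75 (adjusted p = 0.000272), so the size of the change differed between probe sets. *Col5a2*, a chain of the type V collagen that regulates fibril diameter, had signals of 17.8 and 18.7 in ESCs, 7.01 and 6.51 in V6.5 iPGCs, 0.510 and 9.22 in iPGCs of the Oct4-Gfp line, 78.4 and 81.2 in V6.5 somatic cells, and 22.2 and 25.7 in somatic cells of that line. It was not above background on any iPGC array, and V6.5 somatic cells were at least 4.30-fold higher (adjusted p = 0.000102). Only 1 of the 2 Oct4-Gfp somatic arrays was above background, so no fold is given for that line, where the gene was called lower in iPGCs (adjusted p = 0.00431), a call lost under median centring (adjusted p = 0.109).

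The 3 chains of type V collagen did not move together. *Col5a1* had signals of 215 and 249 in ESCs, 176 and 227 in V6.5 iPGCs, 158 and 202 in iPGCs of the Oct4-Gfp line, 3269 and 2854 in V6.5 somatic cells, and 1979.7 and 1611 in somatic cells of that line. It changed by -3.83 (SE 0.19, adjusted p = 6.30e-06) in V6.5 iPGCs against somatic cells and by -3.22 (SE 0.19, adjusted p = 1.33e-05) in Oct4-Gfp cells, with ESC and V6.5 iPGC arrays overlapping. *Col5a3*, whose chain is found in a minor form of type V collagen, went the other way, with signals of 67.2 and 94.6 in ESCs, 89.5 and 80.6 in V6.5 iPGCs, 80.3 and 58.2 in iPGCs of the Oct4-Gfp line, 17.03 and 15.7 in V6.5 somatic cells, and 15.9 and 14.04 in somatic cells of that line. Every ESC and iPGC array was above every somatic array, and 1 of the 4 somatic arrays was above background. *Col5a3* was higher in V6.5 iPGCs by 1.68 (SE 0.19, adjusted p = 0.000223), or 3.20-fold, and in Oct4-Gfp iPGCs by 1.49 (SE 0.19, adjusted p = 0.000434). By the ratio of signals without the offset, the Oct4-Gfp difference was at least 2.998-fold. In somatic cells against ESCs it fell by 1.60 on the log2 scale (adjusted p = 0.000208).

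*Col11a1*, a chain of the fibrils of cartilage that is also made in early mesenchyme, changed less. Its signals were 27.5 and 23.2 in ESCs, 53.5 and 69.2 in V6.5 iPGCs, 68.7 and 77.96 in iPGCs of the Oct4-Gfp line, 256 and 202 in V6.5 somatic cells, and 149.8 and 125 in somatic cells of that line. The populations were in the order ESCs, iPGCs and somatic cells with no overlap, and the changes from somatic cells to iPGCs were -1.68 (SE 0.18, adjusted p = 0.000175) in V6.5 and -0.78 (SE 0.18, adjusted p = 0.00783) in Oct4-Gfp cells. The Oct4-Gfp change missed the threshold under quantile normalization (adjusted p = 0.148), under median centring (0.242) and without somatic Oct4-Gfp replicate 1 (0.0516). *Col2a1*, the main fibrillar collagen of cartilage, which is also expressed in notochord, had signals of 102 and 90.7 in ESCs, 142 and 122 in V6.5 iPGCs, 122 and 144 in iPGCs of the Oct4-Gfp line, 101 and 76.3 in V6.5 somatic cells, and 177 and 157 in somatic cells of that line. These differed little, at 0.51 (SE 0.17, adjusted p = 0.0380) in V6.5 and -0.30 (adjusted p = 0.180) in Oct4-Gfp iPGCs against somatic cells. The V6.5 call for *Col2a1* was lost under 11 of 19 other settings, with adjusted p up to 0.224. The remaining fibrillar gene, *Col11a2*, was not tested and had signals of 1.34 to 27.8.

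**Figure D2:**
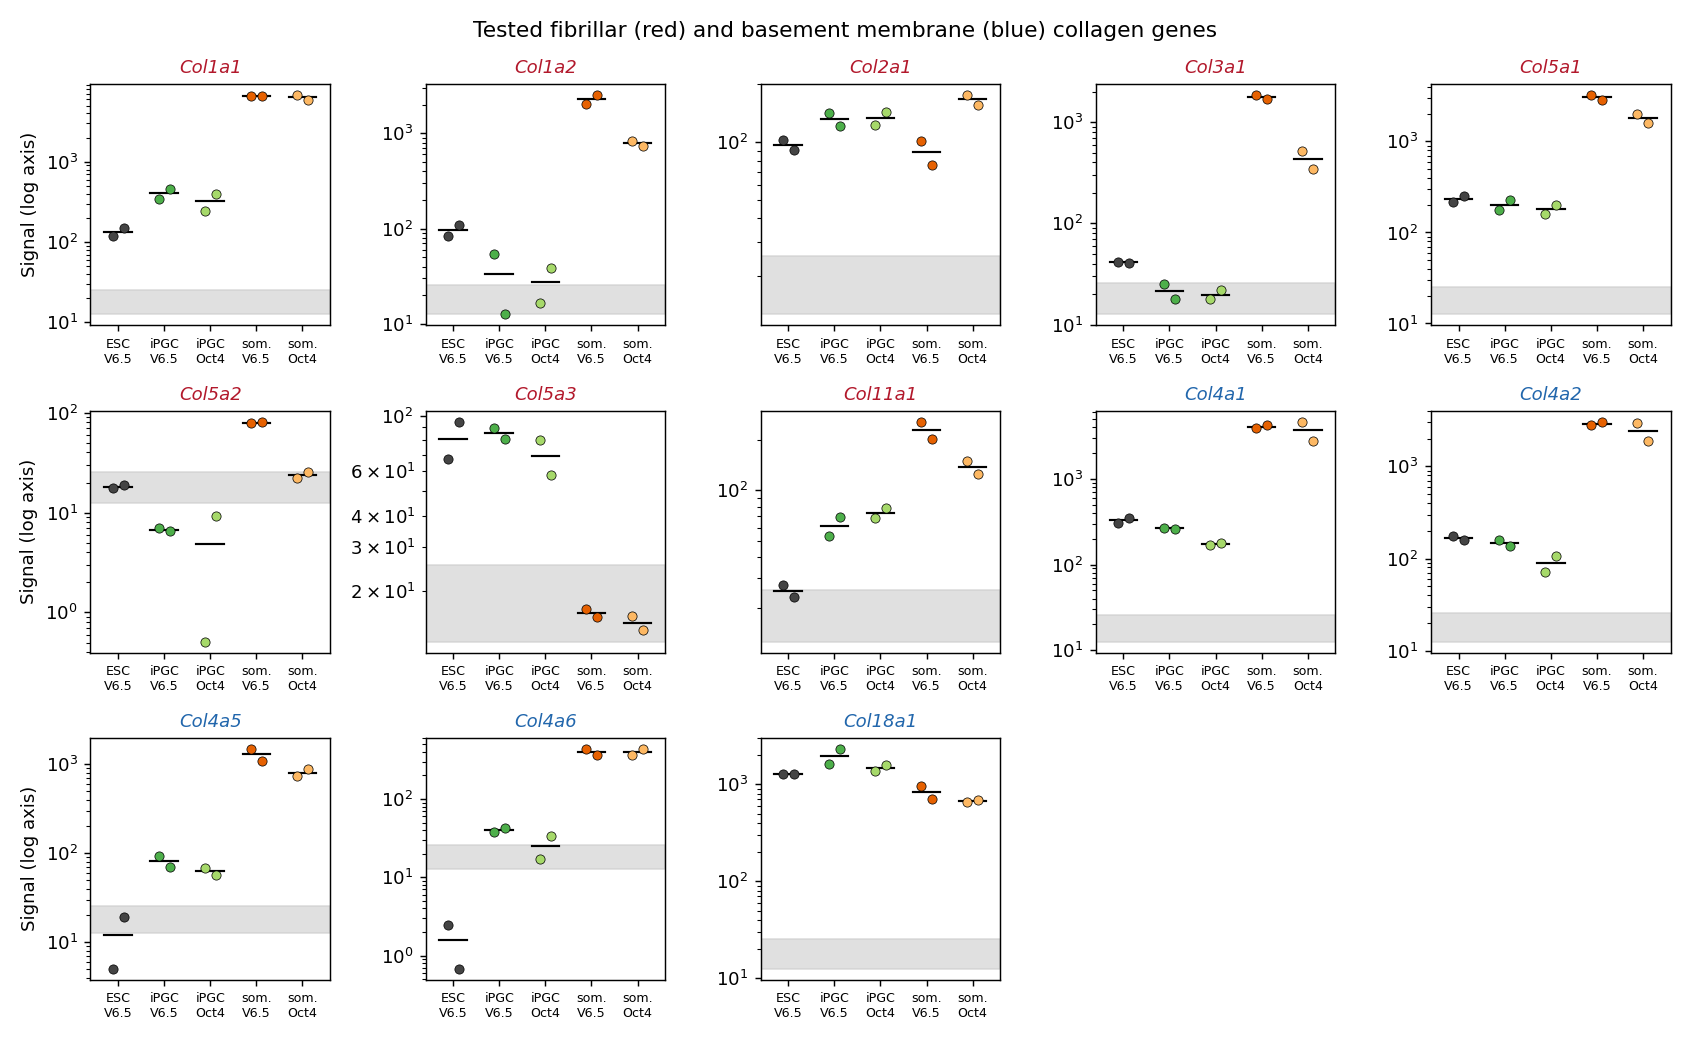
Signals on each array (points, log axis) and means (lines) of the 13 tested fibrillar (red titles) and basement membrane (blue titles) collagen genes in the 5 populations, with the range of background levels shaded. Somatic points (orange) lie above the ESC (dark grey) and iPGC (green) points in 10 of the 13 panels, the exceptions being *Col2a1*, *Col5a3* and *Col18a1*.

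Among the basement membrane genes, *Col4a1* and *Col4a2*, which encode the common form of type IV collagen and start 21 bases apart on opposite strands, changed alike. *Col4a1* had signals of 307 and 354 in ESCs, 266 and 262 in V6.5 iPGCs, 168 and 179.5 in iPGCs of the Oct4-Gfp line, 3912 and 4234 in V6.5 somatic cells, and 4656 and 2748 in somatic cells of that line. *Col4a2* had signals of 177 and 159.8 in ESCs, 159 and 135 in V6.5 iPGCs, 72.02 and 107 in iPGCs of the Oct4-Gfp line, 2785 and 3040.3 in V6.5 somatic cells, and 2937 and 1872 in somatic cells of that line. For both genes all somatic arrays were above all others, and the Oct4-Gfp iPGC arrays were the lowest. *Col4a1* was 14.6-fold lower in V6.5 iPGCs than in somatic cells (-3.87 (SE 0.23, adjusted p = 1.23e-05)) and 19.04-fold lower in Oct4-Gfp iPGCs (-4.25 (SE 0.23, adjusted p = 8.89e-06)). *Col4a2* was 18.1-fold and 22.99-fold lower, with changes of -4.18 (SE 0.24, adjusted p = 1.08e-05) and -4.52 (SE 0.24, adjusted p = 8.71e-06).

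*Col4a5* and *Col4a6*, the X-linked pair whose chains form a type IV network of specialised basement membranes, were lowest in ESCs. Signals of *Col4a5* were 5.02 and 19.1 in ESCs, 93.7 and 69.5 in V6.5 iPGCs, 67.7 and 57.3 in iPGCs of the Oct4-Gfp line, 1485 and 1096 in V6.5 somatic cells, and 730.1 and 874 in somatic cells of that line. Those of *Col4a6* were 2.45 and 0.677 in ESCs, 37.8 and 42.3 in V6.5 iPGCs, 16.9 and 33.7 in iPGCs of the Oct4-Gfp line, 435 and 362 in V6.5 somatic cells, and 359 and 432 in somatic cells of that line. On these probe sets ESCs, iPGCs and somatic cells did not overlap for either gene. *Col4a6* was not above background in ESCs there, nor on iPGC Oct4-Gfp replicate 1. The changes of *Col4a5* in iPGCs against somatic cells were -3.75 (SE 0.28, adjusted p = 3.20e-05) in V6.5 and -3.40 (SE 0.28, adjusted p = 5.16e-05) in Oct4-Gfp cells, and those of *Col4a6* were -2.91 (SE 0.22, adjusted p = 3.31e-05) and -3.38 (SE 0.22, adjusted p = 1.79e-05). From ESCs to V6.5 somatic cells *Col4a5*, above background on 1 of the 2 ESC arrays, changed by 5.64 (adjusted p = 3.47e-06), and *Col4a6* rose at least 26.2-fold (adjusted p = 2.79e-06). On the second tested probe set of *Col4a6* the fitted change was 3.65 (adjusted p = 2.43e-05). There ESC replicate 2 (20.3) exceeded iPGC Oct4-Gfp replicate 1 (9.43). The chains that join *Col4a5* in the glomerular network, *Col4a3* and *Col4a4*, were not tested and each exceeded background on 1 of the 10 arrays.

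*Col18a1*, the basement membrane proteoglycan, was the exception among these genes and was high in iPGCs. It had signals of 1291 and 1289 in ESCs, 1629.7 and 2322 in V6.5 iPGCs, 1381 and 1579 in iPGCs of the Oct4-Gfp line, 959 and 701 in V6.5 somatic cells, and 656 and 693 in somatic cells of that line. On this probe set every ESC and iPGC array was above every somatic array, and every iPGC array was above both ESC arrays. *Col18a1* was higher in iPGCs than in somatic cells by 1.23 (SE 0.21, adjusted p = 0.00203) in V6.5 cells, or 2.35-fold, and by 1.11 (SE 0.21, adjusted p = 0.00331) in Oct4-Gfp cells, or 2.16-fold. Its second tested probe set gave 0.80 (adjusted p = 0.0532) and 0.86 (adjusted p = 0.0406), the same direction with the V6.5 value just short of the threshold. Against ESCs, V6.5 somatic cells changed by -0.64 (adjusted p = 0.0301), a call lost without the filter (adjusted p = 0.0551) and without ESC replicate 1 or 2 or somatic V6.5 replicate 2 (up to 0.186). The second probe set did not have this fall, with a change of -0.015 (adjusted p = 0.967), and on it somatic V6.5 replicate 1 (1179.6) exceeded both ESC arrays (973 and 811).

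**Figure D3:**
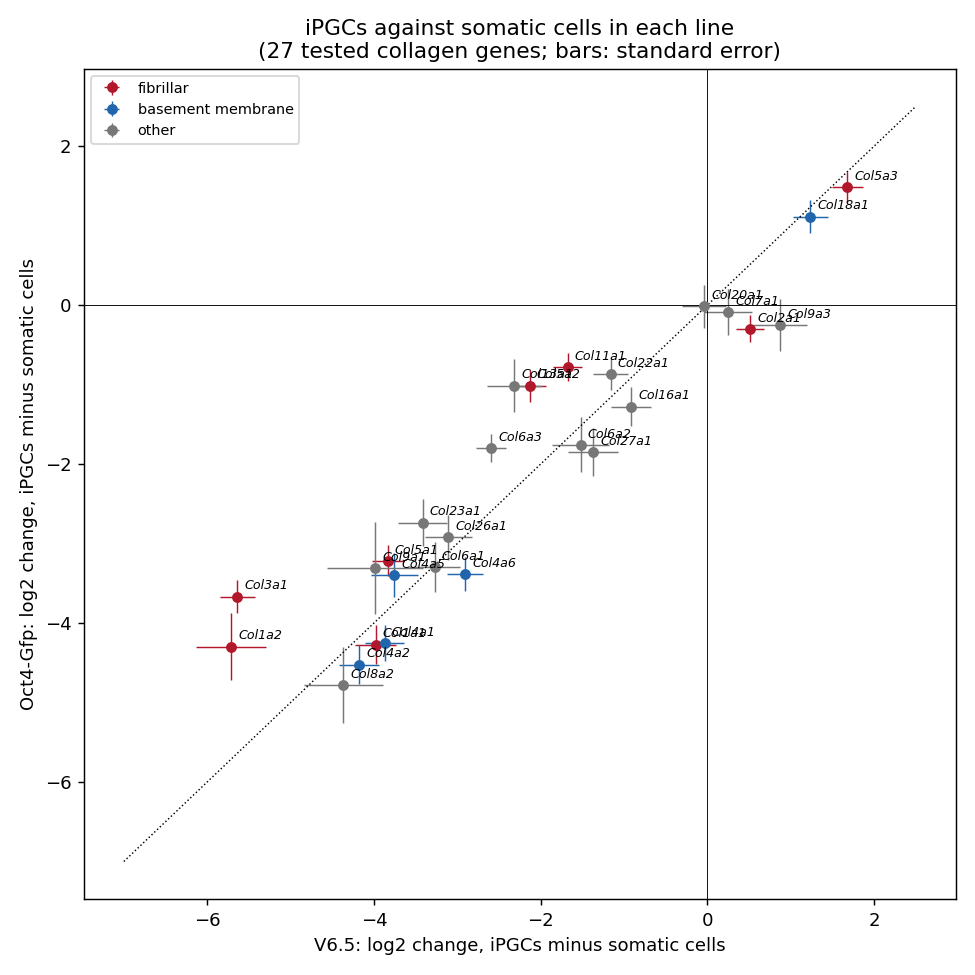
Log2 change from somatic cells to iPGCs in V6.5 cells (x axis) and Oct4-Gfp cells (y axis) for the 27 tested collagen genes, with standard errors as bars and equal change as the dotted line. *Col5a3* and *Col18a1* are the genes called higher in both lines, the 21 genes called lower fill the lower left, and *Col3a1* and *Col1a2* lie farthest above the dotted line.

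Of the 14 tested genes of other types, 11 were lower in iPGCs than in somatic cells in both lines (24.2% in V6.5 and 24.8% in Oct4-Gfp cells over all tested genes). None was called higher in limma (27.3% and 25.7%). At an unadjusted p under 0.05 in limma, 1 was higher in V6.5 cells and 0 in Oct4-Gfp cells (31.5% and 29.7% of all tested genes). Without the filter, 14 of the 26 genes of other types were lower in V6.5 and 13 in Oct4-Gfp cells (15.5% and 17.0% of all genes). In that fit 0 and 1 were higher (17.1% and 15.5%). *Col8a2*, a network-forming collagen known from the corneal endothelium and vessels, had signals of 43.1 and 39.7 in ESCs, 54.9 and 19.4 in V6.5 iPGCs, 53.1 and 38.4 in iPGCs of the Oct4-Gfp line, 1540.1 and 636 in V6.5 somatic cells, and 2167 and 1231 in somatic cells of that line. It changed by -4.37 (SE 0.48, adjusted p = 0.000209) in V6.5 and -4.78 (SE 0.48, adjusted p = 0.000138) in Oct4-Gfp cells, and its somatic arrays differed widely within each line. *Col9a1*, a chain of the fibril-associated type IX collagen of cartilage, had signals of 0.261 and 9.76 in ESCs, 62.4 and 32.6 in V6.5 iPGCs, 31.9 and 52.5 in iPGCs of the Oct4-Gfp line, 1419 and 627 in V6.5 somatic cells, and 310.1 and 934 in somatic cells of that line. It was not above background in ESCs, and on this probe set V6.5 somatic cells were at least 62.4-fold higher (adjusted p = 0.000106). The changes of *Col9a1* in iPGCs were -3.99 (SE 0.57, adjusted p = 0.000850) and -3.31 (SE 0.57, adjusted p = 0.00218) in V6.5 and Oct4-Gfp cells. Its second tested probe set gave smaller changes, at 2.70 (adjusted p = 0.00213) in V6.5 somatic cells against ESCs. In iPGCs against somatic cells it gave -1.87 (adjusted p = 0.0154) in V6.5 and -1.95 (adjusted p = 0.0128) in Oct4-Gfp cells.

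The membrane-spanning collagens *Col23a1* and *Col13a1* also belonged to this set. *Col23a1* had signals of 11.5 and 16.6 in ESCs, 12.5 and 38.6 in V6.5 iPGCs, 27.01 and 24.3 in iPGCs of the Oct4-Gfp line, 445 and 346 in V6.5 somatic cells, and 248 and 262 in somatic cells of that line, and changed by -3.42 (adjusted p = 6.10e-05) in V6.5 and -2.74 (adjusted p = 0.000189) in Oct4-Gfp iPGCs. Its other tested probe sets gave smaller changes, all called, at -1.96 and -2.37 in V6.5 and -2.06 and -2.06 in Oct4-Gfp cells. *Col13a1* had signals of 55.95 and 67.9 in ESCs, 50.9 and 18.9 in V6.5 iPGCs, 62.7 and 38.8 in iPGCs of the Oct4-Gfp line, 266 and 181 in V6.5 somatic cells, and 112 and 119 in somatic cells of that line, and changed by -2.32 (adjusted p = 0.000820) and -1.01 (adjusted p = 0.0359), the second value missing the threshold under 9 of 19 other settings. All somatic arrays of both genes were above all ESC and iPGC arrays. *Col26a1* had signals of 31.3 and 31.5 in ESCs, 50.6 and 34.6 in V6.5 iPGCs, 37.6 and 22.1 in iPGCs of the Oct4-Gfp line, 631 and 358 in V6.5 somatic cells, and 308 and 328 in somatic cells of that line. Its changes were -3.11 (adjusted p = 8.11e-05) and -2.92 (adjusted p = 0.000115), with no overlap between somatic and other arrays.

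All 3 main chains of type VI collagen, which forms beaded microfibrils in the matrix around cells, were lower in iPGCs than in somatic cells. *Col6a1* had signals of 14.1 and 27.1 in ESCs, 12.5 and 32.5 in V6.5 iPGCs, 18.7 and 12.4 in iPGCs of the Oct4-Gfp line, 403 and 273 in V6.5 somatic cells, and 272 and 291 in somatic cells of that line, *Col6a2*, its neighbour, of 22.7 and 12.4 in ESCs, 22.9 and 46.3 in V6.5 iPGCs, 19.7 and 15.6 in iPGCs of the Oct4-Gfp line, 176 and 84.6 in V6.5 somatic cells, and 85.1 and 106 in somatic cells of that line, and *Col6a3* of 23.9 and 30.00 in ESCs, 8.22 and 12.5 in V6.5 iPGCs, 7.28 and 10.8 in iPGCs of the Oct4-Gfp line, 142 and 132 in V6.5 somatic cells, and 78.9 and 58.2 in somatic cells of that line. No somatic array overlapped with an ESC or iPGC array for any of the 3. *Col6a1* changed by -3.27 (adjusted p = 0.000100) and -3.30 (adjusted p = 9.95e-05), and *Col6a2* by -1.52 (adjusted p = 0.00812) and -1.76 (adjusted p = 0.00401) in V6.5 and Oct4-Gfp cells. *Col6a3* was not above background in iPGCs, and somatic cells were at least 7.36-fold higher in V6.5 (adjusted p = 2.18e-05) and at least 3.93-fold higher in Oct4-Gfp cells (adjusted p = 0.000123).

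Smaller changes were found for *Col27a1*, *Col16a1* and *Col22a1*. *Col27a1*, which is fibril-forming by sequence although the rule placed it among the other types, had signals of 57.9 and 39.4 in ESCs, 51.03 and 62.9 in V6.5 iPGCs, 54.4 and 30.9 in iPGCs of the Oct4-Gfp line, 197 and 146 in V6.5 somatic cells, and 241 and 146 in somatic cells of that line. It changed by -1.37 (adjusted p = 0.00663) and -1.85 (adjusted p = 0.00152) in V6.5 and Oct4-Gfp cells, and by -0.59 (adjusted p = 0.241, not called) and -1.49 (adjusted p = 0.0125) on its second probe set. *Col16a1* and *Col22a1*, both fibril-associated, had signals of 32.7 and 52.5 in ESCs, 50.4 and 32.5 in V6.5 iPGCs, 30.8 and 29.7 in iPGCs of the Oct4-Gfp line, 110.0 and 73.7 in V6.5 somatic cells, and 92.4 and 96.4 in somatic cells of that line, and of 73.6 and 69.03 in ESCs, 48.04 and 76.7 in V6.5 iPGCs, 48.8 and 50.7 in iPGCs of the Oct4-Gfp line, 154 and 156 in V6.5 somatic cells, and 121 and 87.8 in somatic cells of that line, respectively. The changes were -0.92 (adjusted p = 0.0153) and -1.28 (adjusted p = 0.00329) for *Col16a1*, and -1.16 (adjusted p = 0.00240) and -0.87 (adjusted p = 0.00939) for *Col22a1*. *Col16a1* missed the threshold in V6.5 cells under 3 of 19 other settings, among them without iPGC V6.5 replicate 2 and without somatic V6.5 replicate 1, with adjusted p up to 0.105. *Col22a1* missed it in Oct4-Gfp cells under quantile normalization, under median centring and without somatic Oct4-Gfp replicate 1, with adjusted p up to 0.131. Its second tested probe set was called lower in both lines with larger changes, at -1.82 in V6.5 and -1.69 in Oct4-Gfp cells.

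*Col9a3*, a partner chain of *Col9a1* in type IX collagen, did not follow it. Its signals were 211 and 323 in ESCs, 141 and 245 in V6.5 iPGCs, 102 and 111 in iPGCs of the Oct4-Gfp line, 123 and 73.1 in V6.5 somatic cells, and 112 and 148 in somatic cells of that line. ESCs had the highest mean, and V6.5 somatic cells differed from ESCs by -1.33 (adjusted p = 0.00864), a call lost without ESC replicate 2 or without somatic V6.5 replicate 2 (adjusted p up to 0.0617). The iPGCs differed from somatic cells by 0.87 (adjusted p = 0.0587) in V6.5 and -0.25 (adjusted p = 0.555) in Oct4-Gfp cells. Its other tested probe set was called higher in V6.5 iPGCs, at 1.27 (adjusted p = 0.00116), and was at -0.019 (adjusted p = 0.946) in the Oct4-Gfp line. *Col7a1*, the anchoring fibril collagen, and *Col20a1* were not called in any comparison, with signals of 58.3 to 126 and 37.8 to 101 over the 10 arrays.

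The 15 genes that were not tested were *Col11a2*, *Col4a3*, *Col4a4* and 12 of other types, namely *Col6a4*, *Col6a5*, *Col8a1*, *Col9a2*, *Col10a1*, *Col12a1*, *Col14a1*, *Col15a1*, *Col17a1*, *Col19a1*, *Col24a1* and *Col25a1*. None of them exceeded a signal of 84.2 on any array, and *Col6a5* and *Col19a1* were within background on all 10. *Col17a1*, the hemidesmosome collagen, was above background on all 10 arrays, at 23.8 to 60.2. *Col8a1* had its highest mean in ESCs, at 40.7 and 84.2, overlapping with somatic V6.5 replicate 1 at 42.5, and *Col24a1* reached 28.3 to 52.6 on the somatic arrays and at most 12.1 elsewhere. In the fit of all 42 genes, *Col11a2*, *Col12a1*, *Col19a1* and *Col24a1* were also called lower in V6.5 iPGCs than in somatic cells, *Col19a1* with both groups within background, and *Col10a1*, *Col12a1* and *Col24a1* in Oct4-Gfp iPGCs, where *Col9a2* was called higher. *Col2a1* in V6.5 cells and *Col13a1* in Oct4-Gfp cells were no longer called in that fit.

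The next comparison asked how the collagen genes of V6.5 iPGCs differed from those of the ESCs they came from. *Col1a1*, *Col11a1*, *Col4a5* and *Col4a6* were higher in iPGCs, and *Col1a2* and *Col6a3* were lower, so 4 of 27 tested genes rose and 2 fell, against 17.3% and 12.9% of all tested genes. *Col4a5* rose by 1.88 (SE 0.28, adjusted p = 0.00338), and *Col4a6*, at background in ESCs on its brightest probe set, was at least 2.65-fold higher (adjusted p = 0.00181). *Col1a1* rose by 1.49 (SE 0.24, adjusted p = 0.00497) and *Col11a1* by 0.92 (SE 0.18, adjusted p = 0.00890), the latter not past the threshold without ESC replicate 2 (adjusted p = 0.061). *Col1a2* changed by -1.36 (SE 0.42, adjusted p = 0.0467), a call lost under 13 of 19 other settings (adjusted p 0.0646 to 0.191). *Col6a3* was at least 1.44-fold lower (adjusted p = 0.0199), a call lost under 5 of 19, among them without ESC replicate 1 or 2 or without iPGC V6.5 replicate 1 (adjusted p up to 0.115). Second probe sets gave 0.77 (adjusted p = 0.117) for *Col1a1* and -0.14 (adjusted p = 0.682) for *Col1a2*. In the fit of all 42 genes 4 rose and 3 fell (8.73% and 6.35% of all genes), the 3 being *Col12a1*, *Col6a3* and *Col8a1*, and the median change was -0.035 beside 0.054 over all genes.

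Markers of other cell types moved along with this comparison. The 4 markers of day 6 somatic cells summed to 83.5 to 109 in ESCs, 1036 to 1160 in V6.5 iPGCs and 16589.7 to 16884 in V6.5 somatic cells. *Tbx20*, *Msx1* and *Hand1*, transcription factors of mesoderm and its derivatives, rose in iPGCs against ESCs by 3.19 (adjusted p = 0.000371), 3.38 (adjusted p = 0.000369) and 2.86 (adjusted p = 0.000687), and *Hoxb1* was within background in V6.5 iPGCs. In V6.5 cells the mean iPGC signal was 6.19% of the somatic signal for *Col1a1*, 6.32% for *Col4a5*, 10.1% for *Col4a6* and 26.8% for *Col11a1*, and it was 6.37% for *Tbx20*, 5.21% for *Hand1* and 8.46% for *Msx1*. For *Col3a1* and *Col1a2*, each above background on 1 of the 2 V6.5 iPGC arrays, it was 1.21% and 1.46%. In Oct4-Gfp cells the share was 4.56% for *Col3a1*, 3.48% for *Col1a2* and 5.07% for *Col1a1*. There it was 6.49% for *Tbx20*, 1.98% for *Hand1* and 6.64% for *Msx1*. On second probe sets, V6.5 iPGC signals of *Col1a1* were 99.5 and 182 against 5050 and 4439 in somatic cells. Those of *Col1a2* were 24.5 and 44.4 against 1246 and 1439. The 14 fibroblast markers, collagens left out, summed to 6014 to 6041 in ESCs, 1982 to 2148 in V6.5 iPGCs and 23788 to 23989 in V6.5 somatic cells. Of these, *Dcn*, *Fap*, *Lum*, *Postn* and *Twist2* were within background on at least 1 of the ESC arrays. Of the 11 fibroblast markers tested (against 17.3% higher and 12.9% lower over all tested genes), 2 had higher and 4 had lower levels in iPGCs than in ESCs. The part of somatic cells, of feeder cells and of the rise in the *Gapdh* ratio in these collagen changes was not tested.

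**Figure D4:**
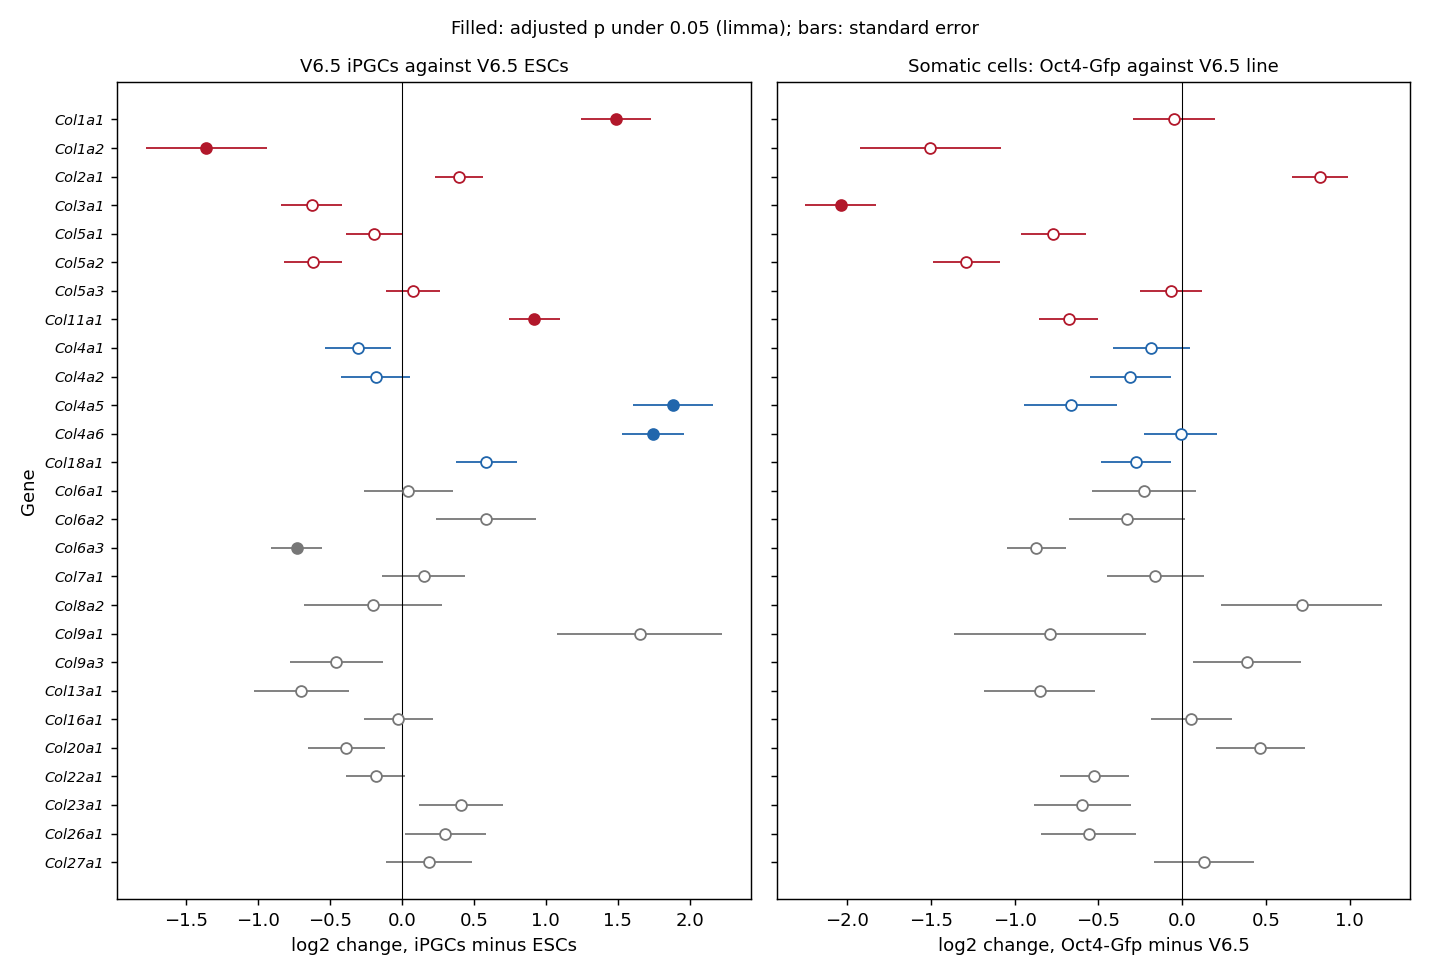
Log2 changes of the 27 tested collagen genes with standard errors, for V6.5 iPGCs minus ESCs (left) and for Oct4-Gfp minus V6.5 somatic cells (right), with filled points called in limma and colours as above for fibrillar (red), basement membrane (blue) and other types (grey). The 4 filled points on the right of the left panel are *Col1a1*, *Col11a1*, *Col4a5* and *Col4a6*, and *Col3a1* is the one filled point of the right panel.

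The lines were then compared within each cell type. Somatic cells of the Oct4-Gfp line had less *Col3a1* than those of the V6.5 line, with a change of -2.04 (SE 0.21, adjusted p = 0.0360), and a second probe set gave -1.83 (adjusted p = 0.036). It was the one tested collagen gene called lower, with none higher, against 0.0492% lower and 0.0328% higher over all tested genes. In the fit of all 42 genes none was called (0.0% lower and 0.0055% higher over all genes), with 10 lower and 2 higher at an unadjusted p under 0.05 in limma (4.16% and 5.18% of all genes). The *Col3a1* call was lost under 13 of 19 other settings (adjusted p 0.0581 to 0.248), with every array left out in turn except somatic Oct4-Gfp replicate 1, and its direction did not change. At an unadjusted p under 0.05, 9 collagen genes were lower and 1 higher, against 5.79% and 6.05% of all tested genes, and 5 of the 9 were fibrillar. The other tested fibrillar genes had changes of -1.50 (adjusted p = 0.248) for *Col1a2*, -1.29 (adjusted p = 0.0989) for *Col5a2*, -0.77 (adjusted p = 0.233) for *Col5a1* and -0.68 (adjusted p = 0.240) for *Col11a1*. *Col2a1* was at 0.82 (adjusted p = 0.183), *Col5a3* at -0.066 (adjusted p = 0.914) and *Col1a1* at -0.048 (adjusted p = 0.954). *Postn*, a matrix protein that binds collagen I, was called lower too, with signals of 1189 and 1132 in V6.5 and 367 and 234 in Oct4-Gfp somatic cells. The calls between the somatic populations were 10 genes in all. Beside *Col3a1* and *Postn*, the erythroid genes *Hbb-y* (-3.18), *Hba-x* (-2.75), *Klf1* (-2.67) and *Art4* (-1.83) were lower in Oct4-Gfp cells, and *Eomes* (2.69), a mesendoderm factor, *Gjb2* (2.12), *Itga6* (1.25) and *Uchl1* (1.22) were higher, with log2 changes in parentheses. The part of a different mix of somatic cells in the *Col3a1* change was not tested.

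No collagen gene was called between the iPGCs of the lines in limma (0.0% of all tested genes in either direction), with 2 lower at an unadjusted p under 0.05 (12.8% of all tested genes), both of the basement membrane. No collagen gene was called for a difference between the lines in the change from somatic cells to iPGCs (0.0% higher and 0.0082% lower over all tested genes), and 6 had a higher and 2 a lower value at an unadjusted p under 0.05 (2.75% and 6.42% of all tested genes). The difference was 1.97 (SE 0.30, adjusted p = 0.187) for *Col3a1*, 1.41 (SE 0.60, adjusted p = 0.467) for *Col1a2* and 1.12 (SE 0.29, adjusted p = 0.301) for *Col5a2*. For *Col3a1* the adjusted p was 0.0264 under median centring, which moved the median difference of all genes by 0.47. These differences share the somatic arrays with the line comparison above, where the 3 genes changed by -2.04, -1.50 and -1.29. Between the iPGCs of the lines *Col3a1* changed by -0.068 and *Col5a2* by -0.17. All 3 genes were within background on at least 1 iPGC array, so the size of their fall is bounded by background there. The line, its background and the reporter used for the sort cannot be told apart in this design. The *Gapdh* ratio also differed between the iPGCs of the lines, and its part was not tested.

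The genes that make, process and read collagen were examined from lists drawn up by role. The filter keeps dim list genes that are bright in 1 population only, and the lists were counted only with it. Of the genes on the array it kept 16 of 17 for biosynthesis, 8 of 11 for processing and 4 of 9 for receptors. For degradation it kept 7 of 13, for collagen-binding matrix proteins 10 of 15 and for regulators 7 of 10. Beside the counts of each list stand the shares over all tested genes, which in iPGCs against somatic cells were 24.2% lower and 27.3% higher in V6.5 and 24.8% lower and 25.7% higher in Oct4-Gfp cells. They were 30.3% higher and 31.8% lower in V6.5 somatic cells against ESCs, and 17.3% higher and 12.9% lower in V6.5 iPGCs against ESCs. Enzymes and chaperones of collagen biosynthesis were lower in iPGCs than in somatic cells for 12 of 16 tested genes in V6.5 and 11 in Oct4-Gfp cells. Signals of *Serpinh1*, the collagen chaperone of the endoplasmic reticulum, were 1353 and 1725 in ESCs, 1393 and 1478 in V6.5 iPGCs, 1136 and 1054 in iPGCs of the Oct4-Gfp line, 7655 and 7416 in V6.5 somatic cells, and 6113 and 6220.3 in somatic cells of that line. All somatic arrays were above all others, and *Serpinh1* changed by -2.38 (adjusted p = 1.46e-05) in V6.5 and -2.48 (adjusted p = 1.29e-05) in Oct4-Gfp iPGCs. The other genes named by size of change were *P3h2*, a prolyl 3-hydroxylase, at -3.59 (adjusted p = 7.40e-05) and -3.64 (adjusted p = 7.20e-05), of *Creb3l1*, a factor that activates collagen genes in bone, at -3.24 (adjusted p = 1.81e-05) and -3.46 (adjusted p = 1.41e-05), and of *P4ha3*, a prolyl 4-hydroxylase subunit, at -2.57 (adjusted p = 0.00140) and -2.42 (adjusted p = 0.00189). In V6.5 somatic cells against ESCs 10 of the 16 rose and 1 fell, and in iPGCs against ESCs 3 fell.

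Of the 8 tested genes of procollagen processing and crosslinking, 7 were lower and 1 higher in V6.5 iPGCs than in somatic cells, and 6 were lower and 1 higher in Oct4-Gfp iPGCs. *Adamts3*, a procollagen N-proteinase, had signals of 30.8 and 16.1 in ESCs, 50.8 and 69.1 in V6.5 iPGCs, 22.1 and 47.7 in iPGCs of the Oct4-Gfp line, 629.9 and 704 in V6.5 somatic cells, and 708 and 766 in somatic cells of that line, and changed by -3.20 (adjusted p = 7.08e-05) and -3.97 (adjusted p = 2.73e-05). The lysyl oxidase family genes *Loxl1* and *Loxl3*, which crosslink collagen and elastin, changed by -3.19 (adjusted p = 1.43e-05) and -2.57 (adjusted p = 0.000201) in V6.5 cells. *Pcolce2*, an enhancer of C-propeptide cleavage, was the one gene that was higher, at 2.22 (adjusted p = 7.46e-05) in V6.5 and 2.22 (adjusted p = 7.63e-05) in Oct4-Gfp iPGCs, with signals of 2030.0 and 1741 in ESCs, 622 and 939 in V6.5 iPGCs, 856 and 941 in iPGCs of the Oct4-Gfp line, 152 and 154 in V6.5 somatic cells, and 188 and 174 in somatic cells of that line. ESCs had the highest *Pcolce2* signals and somatic cells the lowest, with no overlap. Chosen after its values were seen, the related gene *Pcolce* fell from 3825 and 3556 in ESCs to 359 and 348 in V6.5 iPGCs, a change of -3.33 (adjusted p = 0.00105). Fibroblasts also make this protein, and the part of feeder RNA in the ESC signals was not tested.

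Among 4 tested collagen receptors, *Mrc2*, an endocytic receptor that takes up collagen, and *Itgb1*, the common subunit of collagen-binding integrins, were lower in iPGCs than in somatic cells of both lines. *Mrc2* changed by -3.41 (adjusted p = 3.45e-05) and -3.65 (adjusted p = 2.63e-05), and *Itgb1* by -1.16 (adjusted p = 0.000476) and -1.26 (adjusted p = 0.000331) in V6.5 and Oct4-Gfp cells. *Itga1*, a collagen-binding alpha subunit, was higher in Oct4-Gfp iPGCs, at 1.14 (adjusted p = 0.00574), and was at 0.040 (adjusted p = 0.907) in V6.5 cells. *Ddr1*, a receptor tyrosine kinase activated by collagen, was at -0.49 (adjusted p = 0.0773) and -0.55 (adjusted p = 0.0504).

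Proteases and their inhibitors followed the same direction, with 5 of 7 tested genes lower and 1 higher in iPGCs than in somatic cells of each line. *Mmp2*, a gelatinase that cleaves type IV and denatured collagen, had signals of 255 and 275 in ESCs, 246 and 288 in V6.5 iPGCs, 112 and 134 in iPGCs of the Oct4-Gfp line, 2916 and 2876 in V6.5 somatic cells, and 1700.2 and 2109.8 in somatic cells of that line, and changed by -3.37 (adjusted p = 4.98e-06) and -3.80 (adjusted p = 3.78e-06). Its activator *Mmp14* changed by -2.82 (adjusted p = 0.000307) and -3.00 (adjusted p = 0.000238), *Timp2*, an inhibitor that also takes part in that activation, by -4.10 (adjusted p = 1.01e-05) and -3.70 (adjusted p = 1.64e-05), and *Mmp9* by -2.94 (adjusted p = 0.00192) and -2.30 (adjusted p = 0.00635). *Timp1*, an inhibitor of metalloproteinases, was the gene that was higher, at 1.06 (adjusted p = 0.0220) and 1.19 (adjusted p = 0.0135). Its signals were highest in ESCs, at 2038 and 1903, against 339 to 683 in iPGCs and 117 to 274 in somatic cells. In iPGCs against ESCs 4 of the 7 fell.

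Of 10 tested collagen-binding matrix proteins, 8 were lower and 2 higher in V6.5 iPGCs than in somatic cells, and 5 were lower and 1 higher in Oct4-Gfp iPGCs. *Postn*, also one of the fibroblast markers above, changed from a signal of 1189 and 1132 in V6.5 somatic cells to 10.4 and 12.6 in V6.5 iPGCs, which is within background. *Tgfbi*, which binds collagen and integrins, changed by -5.19 (adjusted p = 1.41e-05) and -3.94 (adjusted p = 4.90e-05), and *Bgn*, a small proteoglycan on collagen fibrils, by -2.68 (adjusted p = 0.000474) and -3.46 (adjusted p = 0.000134). *Nid1*, which links the type IV network to laminin, changed by -2.42 (adjusted p = 3.93e-05) and -1.65 (adjusted p = 0.000265) in V6.5 and Oct4-Gfp cells.

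Regulators of collagen genes were lower in iPGCs than in somatic cells for 6 of 7 tested genes in each line and higher in V6.5 somatic cells than in ESCs for all 7. *Tgfb2*, a growth factor that induces matrix genes, had signals of 1.17 and 14.9 in ESCs, 63.8 and 49.8 in V6.5 iPGCs, 75.9 and 86.04 in iPGCs of the Oct4-Gfp line, 1646 and 1702 in V6.5 somatic cells, and 2028 and 1199 in somatic cells of that line. It changed by -4.57 (adjusted p = 2.72e-05) and -4.04 (adjusted p = 4.80e-05) in V6.5 and Oct4-Gfp iPGCs, and *Tgfb1* changed by -2.79 (adjusted p = 0.00100) and -2.51 (adjusted p = 0.00173). *Sox9*, the activator of cartilage collagen genes including *Col2a1*, had signals of 265 to 313 in somatic cells and at most 25.1 elsewhere, whereas *Col2a1* had the small differences given above. *Sox6*, its partner, changed by -3.28 (adjusted p = 5.26e-05) and -1.80 (adjusted p = 0.00106).

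Somatic collagen signals lay beside markers of several cell types, whose counts stand against 24.2% lower and 27.3% higher in V6.5 and 24.8% and 25.7% in Oct4-Gfp cells over all tested genes. Of 8 tested endoderm markers, a lineage that lays down type IV collagen in the embryo, 6 were lower in V6.5 and 8 in Oct4-Gfp iPGCs than in somatic cells. *Gata6*, which marks primitive endoderm and cardiac mesoderm, had signals of 1582 to 2268 in somatic cells and 4.8 to 63.5 elsewhere. Of 11 tested fibroblast markers 10 were lower in iPGCs than in somatic cells in both lines, of 5 muscle markers 3 were lower and 1 higher in both lines, and of 7 cartilage and notochord markers 4 were lower and 2 higher in V6.5 and 3 lower and 2 higher in Oct4-Gfp cells. Endothelial markers were mixed, with 2 lower and 2 higher of 4 tested in V6.5 cells, and 2 lower and 1 higher in Oct4-Gfp cells. These marker counts too were made only with the filter, which kept 8 of 10 endoderm, 11 of 14 fibroblast and 4 of 7 endothelial markers on the array. It kept 7 of 8 cartilage and notochord markers and 5 of 5 muscle markers. Which somatic cells carried the collagen signal was not tested.

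Probe sets of 1 gene largely moved together. For the 14 collagen genes with 2 or more tested probe sets, no gene had probe sets called in opposite directions in any of the 5 comparisons examined. Their signs differed only in iPGCs against ESCs, for *Col22a1*, *Col3a1* and *Col5a1*. There, *Col22a1* was at -0.18 (adjusted p = 0.532) by its brightest probe set and at 1.13 (adjusted p = 0.018) by its second. Each of the 27 genes is described by its brightest probe set over all arrays, and levels of different genes cannot be ranked from these signals.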

How the data were processed

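Expression was measured on 10 Affymetrix Mouse Genome 430 2.0 arrays after whole-transcriptome amplification. The authors deposited linear signal intensity, which the labels credit to MAS5 with no version, scaled to a trimmed mean of 500 per array (2% trimmed at each end, checked on the file). The study's methods name D-Chip model-based values, which were not used here. The platform annotation gave 1 symbol for 34958 probe sets, several for 932 and none for 9211. Control probe sets (64) were left out, 14.8 (the 25th percentile of the whole value table) was added, and log2 values were fitted with limma 3.58.1 in R 4.3.3, as 1 model of 5 groups with 5 residual degrees of freedom. A probe set was tested if it exceeded its array's median on at least 2 arrays (26368 probe sets, 12199 genes), with Benjamini-Hochberg adjustment over all of them. For each gene the brightest probe set on average over the arrays was taken.

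Named collagen genes were the tested fibrillar and basement membrane genes and genes of other types called with a change of at least 2-fold within a line; other lists name up to 4 genes each, those with the largest mean change in iPGCs against somatic cells. Members and lists were chosen with earlier results of these data known. Alternatives were other offsets, filters, normalizations, spread models, arrays, probe set rules and thresholds, a replicate block, and each array left out in turn. The fit was tested on simulated data. The number of arrays limits the precision, and no depth applies. Promoter windows are RefSeq sequences of GRCm38.p6.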

Additional observations from a re-analysis of the deposited data

How the results depend on the processing

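Over 78 pairs of a collagen gene and a comparison that were called, 1482 repeats with another setting kept the direction, 1412 kept the call and 70 (in 13 pairs) lost it. Over 111 pairs not called, 20 of 2109 repeats passed the threshold, in 10 pairs and in the same direction. At a threshold of 3-fold and an unadjusted p under 0.01, the counts became 2 higher (from 4) and 0 lower (from 2) in iPGCs against ESCs, 1 lower (from 3) in somatic cells against ESCs, and 1 (from 3) and 0 (from 2) higher in V6.5 and Oct4-Gfp iPGCs against somatic cells, and 1 gene had a higher difference between the lines (from 0). The 2 genes lower in iPGCs than in ESCs became 1 under quantile normalization, limma-trend and the replicate block, and 0 with only the arrays compared. The difference between the lines gained 1 gene, *Col5a2*, with a floor in place of the offset, and 1, *Col3a1*, under median centring. The 1 gene lower in Oct4-Gfp than V6.5 somatic cells became 2 with a floor and 0 without a filter, with a filter at background, with the replicate block and with only the arrays compared.

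With each array left out in turn, iPGCs against ESCs gave 3 to 6 higher and 0 to 3 lower (0 without ESC replicate 1 or 2, and 1 without iPGC V6.5 replicate 2 or somatic V6.5 replicate 1 or 2). Somatic cells against ESCs gave 20 to 21 higher and 1 to 3 lower (1 without ESC replicate 2 or somatic V6.5 replicate 2). In iPGCs against somatic cells there were 2 to 4 higher and 20 to 21 lower in V6.5 cells, and 2 higher and 18 to 21 lower in Oct4-Gfp cells. Oct4-Gfp against V6.5 somatic cells gave 0 to 1 lower. Median centring moved the median change of all genes by 0.45 in Oct4-Gfp iPGCs against somatic cells. Whether replicate numbers pair the arrays cannot be decided from 2 arrays a population, and the main fit used no pairing. Deviations of same-numbered arrays from their group means correlated at -0.29 to 0.26. Between iPGCs and somatic cells of the same line they correlated at 0.014 in V6.5 and 0.134 in Oct4-Gfp cells. The replicate block changed no other count of called collagen genes by over 1.5 times. With 2 arrays a population, a dim gene within background has only a bound, and no sample can be tested as standing apart. The cause of these changes was not tested.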
